A study of Mus musculus with 28 samples.

Results

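The 30 genes described here act in the unfolded protein response, the programme by which cells answer an excess of unfolded protein in the endoplasmic reticulum (ER). They were chosen by name and found by symbol among the 48709 genes counted in the CA1 field of the mouse hippocampus, and all 30 were present in the count files. Of the 30, 21 were assigned to the ATF6 and IRE1 arms: 11 chaperones and co-factors of folding, 3 disulfide isomerases, 4 genes of ER-associated degradation (ERAD) and 3 sensors or transcription factors. The other 9 were assigned to the PERK arm: 4 sensors or transcription factors and 5 targets of ATF4 or CHOP. A filter on low counts left 17009 genes for testing, among them 29 of the 30, and Trib3 did not pass it.

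The 28 libraries fell into 3 groups. From CamkdeltaC transgenic mice there were 9 libraries with vorinostat and 9 with vehicle, and from wildtype littermates 10 libraries with vehicle. CamkIIδC is an isoform of a calcium-dependent kinase, and as background such mice are used as a heart failure model with the transgene expressed in cardiac muscle. Vorinostat, an inhibitor of histone deacetylases, or vehicle was given in the drinking water from 2 months of age for 4 weeks, and tissue was from mice aged 3 months. Mice of both sexes were used, with no sex given per library. The promoter of the transgene is not in the labels, and vorinostat in wildtype mice was not analysed here. Whether every library stands for its own mouse is not stated, so the p-values measure a spread between libraries that may be technical.

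As background, 3 proteins of the ER membrane sense unfolded protein. ATF6 is cut and its freed fragment enters the nucleus, and IRE1 splices the Xbp1 transcript so that it encodes an active transcription factor. Both raise chaperones, folding enzymes and ERAD components. PERK phosphorylates the translation factor eIF2α, which lowers protein synthesis in general and favours translation of ATF4, whose targets include amino acid synthesis genes and the transcription factor CHOP. In neurons the secretory pathway carries receptors, channels and adhesion proteins to synapses, and the same eIF2α switch is known for its part in long-lasting synaptic change. Cleavage of ATF6, splicing of Xbp1 and phosphorylation of PERK are not seen in counts per gene.

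The promoters of both sets of genes were searched for the DNA motifs of each arm. RefSeq promoters (GRCm38.p6, from 250 bases before to 50 bases after the annotated start) were found for 27 of the 30 genes, and Manf, Atf6 and Hyou1 had no entry. The ER stress response element, read as CCAAT, 9 bases of any kind and CCACG on either strand, is the element through which ATF6 with NF-Y acts. It was in 8 of 18 promoters of the ATF6 and IRE1 arms (Hspa5, Hsp90b1, Pdia6, Calr, Canx, Dnajc3, Creld2 and Syvn1), in 0 of 9 of the PERK arm, and in 37 of all 27025 promoters (0.137%). Its shorter form, ATTGG, 1 base of any kind and CCACG, was in Dnajb11 and Herpud1, against 12 promoters in all (0.044%). The amino acid response element core, read as TGATG, 1 base of any kind and AA, to which ATF4 with a C/EBP partner binds, was in 4 of 9 PERK arm promoters (Atf3, Trib3, Chac1 and Asns) and in 1 of 18 of the ATF6 and IRE1 arms (Herpud1), against 1219 in all (4.51%). The XBP1 element, TGACG followed by TGG, was in 0 of 27, against 193 promoters in all (0.714%). These are matches of letters on both strands, and a promoter without one may hold a variant of the motif or a site outside the window. Genes and motifs were both chosen as known parts of this response. The shares therefore describe these promoters and are no test of the division into arms. No match of one motif overlapped a match of another in these 27 promoters.

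The promoters below show the chaperone element, the shorter form beside an ATF4 element, and the ATF4 element alone, each printed 5′ to 3′ on the strand of the gene with the matched motif in capitals. The matches begin at position -65 from the RefSeq start in Hspa5 and at -212 and -107 (the latter on the reverse strand) in Hsp90b1. In Herpud1 they begin at -112 (ATF4 element, reverse strand) and -52 (shorter ER stress element). The match begins at -193 in Chac1 (reverse strand) and at -23 in Asns.
Hspa5, chr2:34771840-34772139, plus strand: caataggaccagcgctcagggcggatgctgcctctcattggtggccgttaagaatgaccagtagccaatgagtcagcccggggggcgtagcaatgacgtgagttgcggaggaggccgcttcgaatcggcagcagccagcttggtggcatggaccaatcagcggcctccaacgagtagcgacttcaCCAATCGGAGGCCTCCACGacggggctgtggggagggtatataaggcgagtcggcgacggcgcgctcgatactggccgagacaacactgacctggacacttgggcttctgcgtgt
Hsp90b1, chr10:86705395-86705694, minus strand: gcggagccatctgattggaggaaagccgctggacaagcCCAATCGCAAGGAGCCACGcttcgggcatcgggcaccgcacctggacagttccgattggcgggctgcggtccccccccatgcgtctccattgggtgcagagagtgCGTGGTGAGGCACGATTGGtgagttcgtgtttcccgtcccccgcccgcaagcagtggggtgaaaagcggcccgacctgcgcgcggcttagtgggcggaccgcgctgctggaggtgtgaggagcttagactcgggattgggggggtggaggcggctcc
Herpud1, chr8:94386179-94386478, plus strand: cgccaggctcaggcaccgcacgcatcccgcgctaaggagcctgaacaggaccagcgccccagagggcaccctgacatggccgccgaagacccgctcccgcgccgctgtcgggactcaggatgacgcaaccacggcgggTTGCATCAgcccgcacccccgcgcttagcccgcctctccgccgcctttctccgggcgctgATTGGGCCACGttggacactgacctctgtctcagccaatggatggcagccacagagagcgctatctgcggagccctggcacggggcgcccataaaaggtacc
Chac1, chr2:119350992-119351291, plus strand: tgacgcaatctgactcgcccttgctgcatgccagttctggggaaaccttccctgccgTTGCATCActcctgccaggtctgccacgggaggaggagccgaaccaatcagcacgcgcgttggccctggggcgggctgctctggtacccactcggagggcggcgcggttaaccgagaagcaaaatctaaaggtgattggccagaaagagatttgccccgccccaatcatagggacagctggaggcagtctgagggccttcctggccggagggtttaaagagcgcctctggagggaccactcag
Asns, chr6:7693160-7693459, minus strand: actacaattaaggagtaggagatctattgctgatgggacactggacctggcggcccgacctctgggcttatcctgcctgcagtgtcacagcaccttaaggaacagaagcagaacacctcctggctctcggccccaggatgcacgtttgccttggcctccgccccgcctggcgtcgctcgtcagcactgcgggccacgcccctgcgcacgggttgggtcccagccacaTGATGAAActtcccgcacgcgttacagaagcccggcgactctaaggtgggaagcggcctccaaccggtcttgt

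Library totals ran from 20230085 to 33191857 counts, with medians of 23615586 in vorinostat, 25457735 in transgenic vehicle and 23142040 in wildtype vehicle libraries. All 6 CA1 pyramidal markers listed, Wfs1 among them, were detected in every library. Mitochondrial genes took 6.39 to 7.48% of counts in vorinostat 6, 7 and 9 and wildtype vehicle 2, against 2.84 to 4.11% in the other 24 libraries. Summed red blood cell markers were at 77.4 to 135 CPM (counts per 1000000 TMM-scaled counts) in those 4 libraries, against 18.0 to 57.1 CPM elsewhere. Of the 5 red blood cell markers 4 were detected in every library, none was at 0 throughout, and their sum ran from 36.7 to 135 CPM in vorinostat, 18.0 to 46.2 CPM in transgenic vehicle and 21.1 to 106 CPM in wildtype vehicle libraries. Summed CA1 pyramidal markers were at 919, 1003 and 933 CPM in vorinostat 6, 7 and 9, below the 1065 to 1513 CPM of the other 24. Wildtype vehicle 2, at 1223 CPM, lay inside that range. Summed oligodendrocyte markers were at 3782 to 6674 CPM in the 4, inside the 2979 to 6739 CPM of the 24. Astrocyte markers were at 1240 to 1662 CPM, against 1060 to 1337 CPM. The part of cell composition in the comparisons was not tested. Since 3 of these 4 libraries are vorinostat libraries, values without the 4, a choice made after seeing the data, are given in each comparison for the medians and for the genes they move most.

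The ER chaperone genes Calr, Canx, Hsp90b1 and Hspa5 and the isomerase gene Pdia3 were the most abundant of the 30 genes. Levels between genes were compared per kilobase of exon (RPKM), and in wildtype vehicle libraries Calr, a lectin chaperone that binds calcium, was highest at 129 ± 7.81 RPKM (SD, n = 10). It was followed by Canx, its membrane-bound partner, at 73.3 ± 4.83 RPKM. Hsp90b1, the ER member of the HSP90 family, was at 62.4 ± 3.76 RPKM. The disulfide isomerase Pdia3 was at 60.6 ± 3.94 RPKM, and its range of 1 SD overlapped that of Hsp90b1. Hspa5, which encodes the chaperone BiP, was at 53.2 ± 3.18 RPKM. Next came the highest genes of the PERK arm, the transcription factor gene Atf4 at 41.7 ± 3.49 RPKM and Asns, which makes asparagine, at 31.3 ± 2.88 RPKM. The other chaperones lay below these, from Hyou1 at 17.9 RPKM to Sdf2l1 at 6.10 RPKM.

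The sensors Atf6, Eif2ak3 and Ern1 and the stress-induced targets Chac1, Atf3 and Trib3 were in the lower part of the order, with Ddit3 in the middle. Atf6 was at 8.77 RPKM, the PERK gene Eif2ak3 at 4.35 RPKM and the IRE1 gene Ern1 at 2.29 RPKM, as means over wildtype vehicle libraries. Ddit3, which encodes CHOP, was at 12.7 RPKM and Chac1, which breaks down glutathione, at 3.28 RPKM. Atf3, a transcription factor induced by many stresses, was at 0.166 RPKM and Trib3, a pseudokinase induced by ATF4 and CHOP, at 0.165 RPKM. From Ddit3 down to Sesn2, each gene overlapped the next in its range of 1 SD, so the order among Ddit3, Syvn1, Dnajc3, Dnajb9, Creld2, Manf, Atf6 and Sesn2 is loose.

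**Figure D1:**
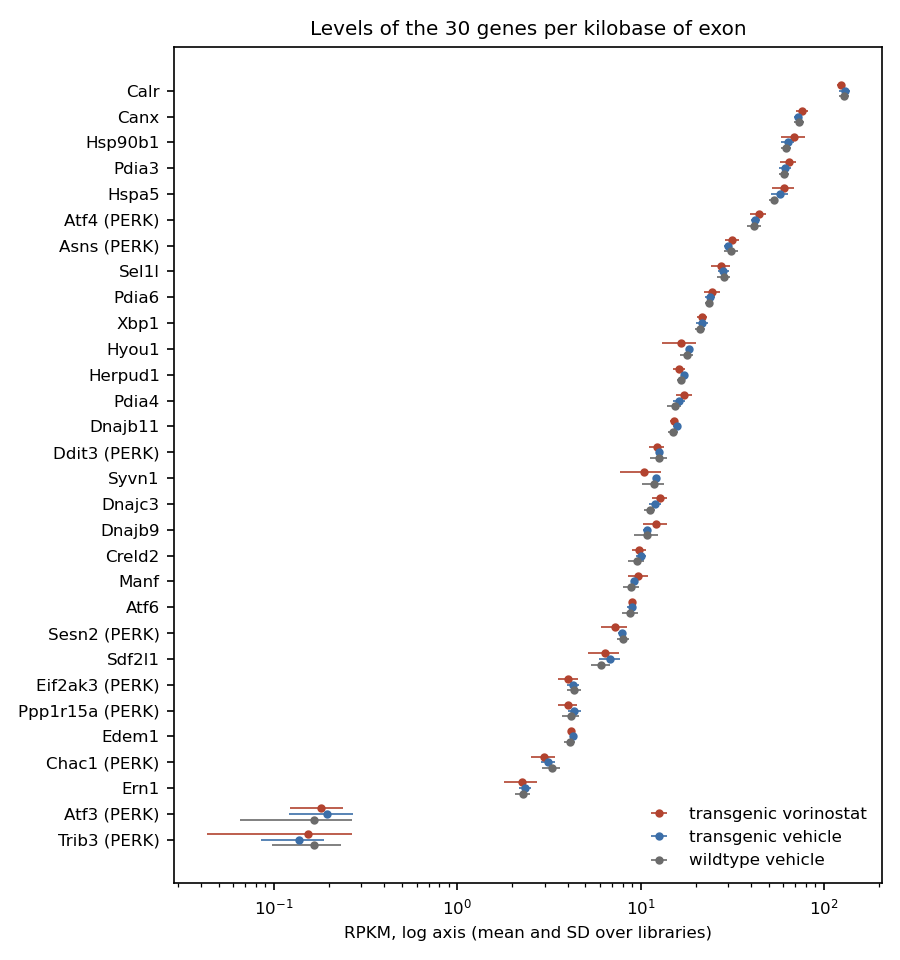
Level of each of the 30 genes per kilobase of exon (RPKM, log axis) in vorinostat, transgenic vehicle and wildtype vehicle libraries, as mean and SD over 9, 9 and 10 libraries; PERK arm genes are marked and the others belong to the ATF6 and IRE1 arms. Calr is highest near 129 RPKM, Atf3 and Trib3 are lowest near 0.17 RPKM, and the 3 groups lie close together for every gene.

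Transgenic and wildtype mice on vehicle were compared to ask whether ER stress genes differ in CA1 of the transgenic mice. Most chaperone and ERAD genes had small positive values, and no gene passed the test. By edgeR's quasi-likelihood test 0 of 29 genes were called at an adjusted p under 0.05, as were 0 of all 17009 (0.0%), and 0 of 29 had an unadjusted p under 0.05, against 227 of all genes (1.33%). DESeq2 also called 0 genes. Log2 fold changes were positive for 19 of 21 genes of the ATF6 and IRE1 arms, with a median of 0.036, and for 4 of 8 tested genes of the PERK arm, with a median of -0.0062. Over all genes tested the median was 0.0001, with 8523 of 17009 positive. Without the 4 libraries of high mitochondrial share, 17 of the 21 were positive with a median of 0.056, and 4 of the 8 with a median of 0.0077. Trib3 passed the low-count filter in that fit, and with it the PERK arm median was -0.0092.

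Among the chaperones 10 of 11 were positive with a median of 0.053, and Canx was the negative one at -0.03. Hspa5 (ENSMUSG00000026864; GRCm38 chromosome 2, 34771970 to 34777547, plus strand) had 210, 247 and 294 CPM (lowest, median and highest) in transgenic vehicle and 203, 222 and 247 CPM in wildtype vehicle libraries. Transgenic vehicle 6 was the highest of its group, 7 of 9 transgenic libraries lay above the wildtype mean, and the groups overlapped. This gave a log2 fold change of 0.11 (SE 0.0697, unadjusted p = 0.113, edgeR adjusted p = 0.9998), and without transgenic vehicle 6 it was 0.08 (SE 0.0670). Without the 4 libraries of high mitochondrial share it was 0.13 (SE 0.0593, edgeR adjusted p = 0.9995).

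Sdf2l1 (ENSMUSG00000022769; chromosome 16, 17130138 to 17132383, minus strand), a co-factor of BiP, gave the most positive value in the ATF6 and IRE1 arms. It had 6.80, 7.28 and 10.1 CPM in transgenic vehicle and 5.81, 6.50 and 8.36 CPM in wildtype vehicle libraries. The transgenic maximum was again library 6, the other 8 transgenic libraries reached 7.66 CPM, and the groups overlapped. Its log2 fold change was 0.16 (SE 0.0941, edgeR adjusted p = 0.9998), and without transgenic vehicle 6 it was 0.10 (SE 0.0894). Without the 4 libraries of high mitochondrial share it was 0.18 (SE 0.0972, edgeR adjusted p = 0.9995). All 5 oligodendrocyte markers, genes of myelin-forming cells, were detected in every library, and their sum ran from 3353 to 6739 CPM in transgenic vehicle and from 2979 to 5244 CPM in wildtype vehicle libraries. Transgenic vehicle 6 had the highest sum, and its part in these values was not tested.

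The co-chaperone gene Dnajc3 (ENSMUSG00000022136; chromosome 14, 118937976 to 118981697, plus strand), whose product also restrains PERK, had 55.0, 62.2 and 68.8 CPM in transgenic vehicle and 53.2, 57.6 and 65.1 CPM in wildtype vehicle libraries. The groups overlapped and 7 of 9 transgenic libraries lay above the wildtype mean. Its log2 fold change was 0.09 (SE 0.0534, edgeR adjusted p = 0.9998), and without the 4 libraries it was 0.11 (SE 0.0443, edgeR adjusted p = 0.9995). The ERAD genes Herpud1 and Edem1, which help to pass misfolded proteins to degradation, were each at 0.06, and Syvn1, the ubiquitin ligase of this pathway, was at 0.04 and, without the 4 libraries, at -0.02.

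In the PERK arm, Atf4 (ENSMUSG00000042406; chromosome 15, 80255184 to 80257541, plus strand) had 92.5, 97.5 and 109 CPM in transgenic vehicle and 88.5, 97.0 and 113 CPM in wildtype vehicle libraries. The wildtype range enclosed the transgenic one, and the log2 fold change was 0.02 (SE 0.0553). Ddit3 was at 0.00 (SE 0.0584) and Asns at -0.06 (SE 0.0527), the last at -0.03 without the 4 libraries. Atf3 had a value of 0.16 with an SE of 0.274, at 0.168 to 0.765 CPM in transgenic vehicle and 0.175 to 0.860 CPM in wildtype vehicle libraries.

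The 95% intervals set the size of difference that these libraries could still hide. For the ATF6 and IRE1 arms they lay between -0.19 and 0.35 on the log2 scale over all 21 genes. For the PERK arm they lay between -0.40 and 0.72, both limits set by Atf3. In bulk tissue a change in the number of cells of a type and a change in RNA per cell cannot be told apart.

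Among transgenic mice, vorinostat was set against vehicle to ask how these genes differ with the drug. No gene passed the test. Over all libraries chaperones and isomerases had more positive than negative values, a majority that turned without the 4 libraries of high mitochondrial share, and ERAD and PERK arm genes had more negative than positive ones either way. By edgeR 0 of 29 genes were called, as were 0 of 17009 (0.0%), and 0 of 29 had an unadjusted p under 0.05, against 2450 of all genes (14.4%). DESeq2 called 1 gene of the whole table and 0 of the 29. The median log2 fold change was -0.0046 over the ATF6 and IRE1 arms (9 of 21 positive) and -0.089 over the PERK arm (2 of 8 positive), against 0.0034 over all genes. These medians were -0.028 (7 of 21 positive) and -0.029 (2 of 8 positive) without the 4 libraries.

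By role, 6 of 11 chaperones were positive with a median of 0.074, all 3 disulfide isomerases were positive with a median of 0.062, and all 4 ERAD genes were negative with a median of -0.065. Without the 4 libraries, 4 of 11 chaperones were positive (median -0.028), as were 1 of 3 isomerases (median -0.030) and 1 of 4 ERAD genes (median -0.017). The largest negative value was that of Syvn1 (ENSMUSG00000024807; chromosome 19, 6046576 to 6053712, plus strand). It had 32.5, 58.5 and 60.5 CPM in vorinostat and 55.0, 59.6 and 60.9 CPM in transgenic vehicle libraries. Vorinostat 6, 7 and 9 lay below every transgenic vehicle library, and the other 6 vorinostat libraries lay within the transgenic vehicle range. The log2 fold change was -0.22 (SE 0.113, edgeR adjusted p = 0.349), and without the 4 libraries of high mitochondrial share it was -0.006 (SE 0.0394).

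Hyou1, a large chaperone that serves BiP as a nucleotide exchange factor, showed the same libraries apart. It had 78.9, 133 and 143 CPM in vorinostat and 126, 133 and 139 CPM in transgenic vehicle libraries. The lowest vorinostat values were libraries 7, 6 and 9, and the groups overlapped. Its log2 fold change was -0.15 (SE 0.0878, edgeR adjusted p = 0.386), and it was 0.03 without the 4 libraries. Ern1, which encodes the sensor IRE1, was at -0.05 (SE 0.0919, edgeR adjusted p = 0.8055), and without the 4 libraries at 0.13 (SE 0.0469, edgeR adjusted p = 0.966).

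The positive end of the chaperones was Dnajb9, a co-chaperone induced through IRE1 and XBP1. It had 24.9, 30.6 and 38.6 CPM in vorinostat and 25.4, 27.7 and 29.8 CPM in transgenic vehicle libraries. Vorinostat 7 was highest, and the vorinostat range enclosed that of transgenic vehicle. Dnajb9 had a log2 fold change of 0.15 (SE 0.0827, edgeR adjusted p = 0.357), and it was 0.02 without the 4 libraries. Hspa5 had a value of 0.07 (SE 0.0716) and Hsp90b1 of 0.10 (SE 0.0671), and without the 4 libraries both were at -0.04.

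In the PERK arm, Sesn2 (ENSMUSG00000028893; chromosome 4, 132492032 to 132510501, minus strand), a stress-induced restraint on mTORC1 signalling, had 19.5, 27.5 and 29.4 CPM in vorinostat and 25.9, 27.8 and 29.3 CPM in transgenic vehicle libraries. Vorinostat 6, 7 and 9 were the lowest of their group, and the groups overlapped. For Sesn2 the log2 fold change was -0.13 (SE 0.0710, edgeR adjusted p = 0.354), and it was 0.0001 without the 4 libraries. Ppp1r15a, whose product brings a phosphatase to eIF2α, was at -0.12 (SE 0.0713), Eif2ak3 at -0.09 (SE 0.0666), Atf4 at 0.06 (SE 0.0567) and Asns at 0.08 (SE 0.0541). Without the 4 libraries Ppp1r15a was at -0.04, Eif2ak3 at 0.01, Atf4 at -0.02 and Asns at -0.01.

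**Figure D2:**
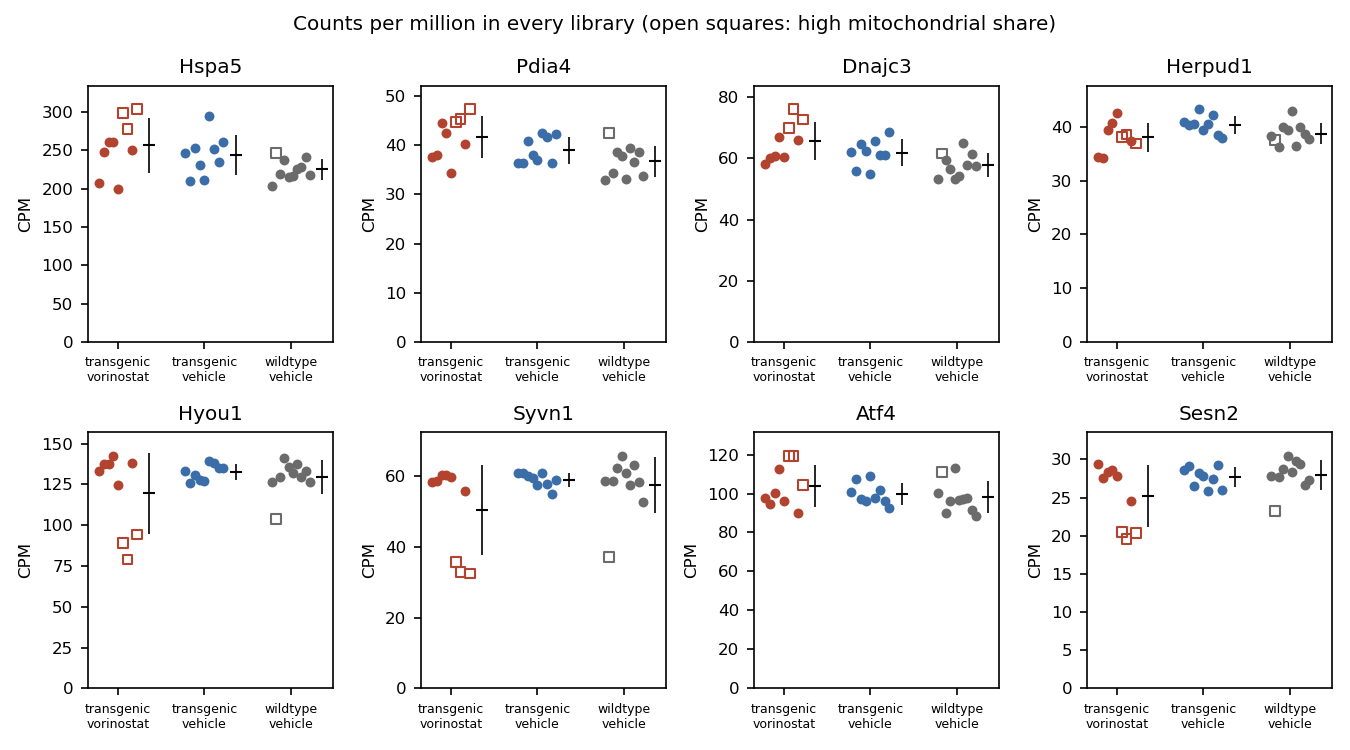
CPM of 8 genes in each vorinostat, transgenic vehicle and wildtype vehicle library, with the mean and SD beside each group; open squares are the 4 libraries with a mitochondrial share of 6.39 to 7.48%. For Syvn1, Hyou1 and Sesn2 the squares lie below all other libraries, for Hspa5, Pdia4 and Dnajc3 they lie in the upper part of their groups, and the groups overlap for every gene.

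The comparison of vorinostat-treated transgenic mice with wildtype vehicle mice combines both differences, and it shares its libraries with the comparisons above. By edgeR 0 of 29 genes were called, as were 0 of 17009 (0.0%), and DESeq2 called 0. An unadjusted p under 0.05 was found for 6 of 29 genes (20.7%), against 2142 of all genes (12.6%). The 6 were the chaperones Hspa5, Hsp90b1, Dnajc3 and Manf and the isomerase Pdia4, with positive values, and Sesn2, with a negative one. The median was 0.048 over the ATF6 and IRE1 arms (15 of 21 positive) and -0.048 over the PERK arm (3 of 8 positive), against 0.0064 over all genes. Leaving out the 4 libraries gave medians of 0.029 (17 of 21 positive) and -0.019 (3 of 8 positive).

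Dnajc3 gave the smallest p of the 29. It had 58.1, 66.2 and 76.1 CPM in vorinostat and 53.2, 57.6 and 65.1 CPM in wildtype vehicle libraries. All 9 vorinostat libraries lay above the wildtype mean of 58.0 CPM, and the groups overlapped. The log2 fold change was 0.18 (SE 0.0534, unadjusted p = 0.00200, edgeR adjusted p = 0.385), and it was 0.11 without the 4 libraries.

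Pdia4 (ENSMUSG00000025823; chromosome 6, 47796141 to 47813430, minus strand), an isomerase that forms disulfide bonds in folding proteins, had 34.3, 42.5 and 47.3 CPM in vorinostat and 32.9, 37.2 and 42.5 CPM in wildtype vehicle libraries. In all, 8 of 9 vorinostat libraries lay above the wildtype mean, and the wildtype maximum was library 2, of high mitochondrial share. The log2 fold change was 0.18 (SE 0.0586, unadjusted p = 0.00473, edgeR adjusted p = 0.385), and it was 0.13 without the 4 libraries.

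Hspa5 had 199, 261 and 304 CPM in vorinostat and 203, 222 and 247 CPM in wildtype vehicle libraries. Vorinostat 5 was below every wildtype library and vorinostat 9 was highest. For Hspa5 the log2 fold change was 0.19 (SE 0.0697, unadjusted p = 0.0116, edgeR adjusted p = 0.385), a fold of 1.14, and it was 0.09 without the 4 libraries. Hsp90b1 and Manf, a secreted protein that protects neurons, were each at 0.13 (edgeR adjusted p = 0.395 and 0.391), and at 0.02 and 0.06 without the 4 libraries.

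Sesn2 was at -0.15 (SE 0.0693, edgeR adjusted p = 0.386) and Syvn1 at -0.19 (SE 0.111, edgeR adjusted p = 0.430), and both were within 0.05 of 0 without the 4 libraries, at -0.04 and -0.02. Other genes of the PERK arm lay on either side of 0, with Chac1 at -0.14 (SE 0.0810) and Atf4 at 0.08 (SE 0.0553), and at -0.10 and 0.03 without the 4 libraries. Ern1 was at -0.01 (SE 0.0897), and without the 4 at 0.12 (SE 0.0470, edgeR adjusted p = 0.9285). Over the 21 genes of the ATF6 and IRE1 arms the 95% intervals lay between -0.41 and 0.33.

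**Figure D3:**
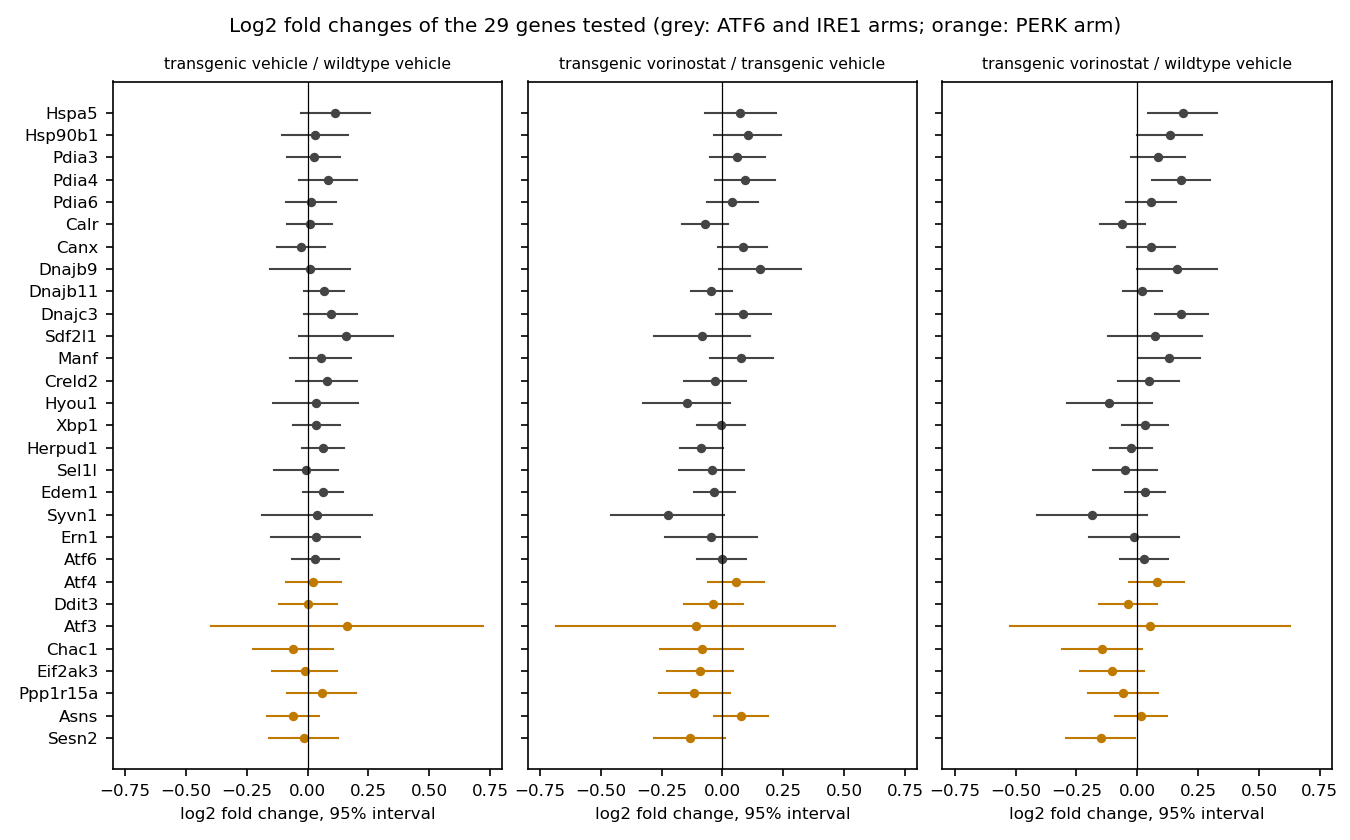
Log2 fold change with its 95% interval (edgeR, 28 libraries) for the 29 genes tested, with panels for transgenic vehicle over wildtype vehicle, vorinostat over transgenic vehicle and vorinostat over wildtype vehicle; grey marks the ATF6 and IRE1 arms and orange the PERK arm. Intervals that leave out 0 are found only in the last comparison, for the 6 genes at an unadjusted p under 0.05, and none of these passed adjustment.

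Values of other genes are given here for all 3 comparisons in a fixed order. The order is transgenic over wildtype on vehicle, the drug over vehicle in transgenic mice, and the drug over wildtype vehicle. Xbp1, the transcript that IRE1 splices, was at 0.04, -0.0046 and 0.03, and Atf6 at 0.03, -0.0031 and 0.03, each with an SE under 0.05. The co-chaperone gene Dnajb11 was at 0.07, -0.05 and 0.02, and Creld2, a secreted ER stress protein, at 0.08, -0.03 and 0.05. Sel1l, the partner of the Syvn1 ligase, was at -0.0065, -0.04 and -0.05, Calr at 0.0089, -0.07 and -0.06, and Pdia6 at 0.02, 0.04 and 0.06. Herpud1 was at 0.06, -0.09 and -0.03 and Edem1 at 0.06, -0.03 and 0.03. Canx was at -0.03, 0.08 and 0.06 and Pdia3 at 0.02, 0.06 and 0.09. Without the 4 libraries Sel1l was at 0.06 and 0.04 and Pdia6 at -0.04 and -0.01 in the comparisons of the drug over transgenic and over wildtype vehicle. In the same order Canx was then at 0.02 and 0.02 and Pdia3 at -0.03 and 0.02. Herpud1 gave the smallest p of the 29 genes for the drug over transgenic vehicle (SE 0.0434, unadjusted p = 0.0538, edgeR adjusted p = 0.349). Its value there stayed at -0.09 (SE 0.0476) without the 4 libraries, and over wildtype vehicle it was -0.03. None of these had an unadjusted p under 0.05 in any comparison.

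Trib3, too low to be tested, had 0.0461, 0.282 and 0.894 CPM in vorinostat, 0.0840, 0.300 and 0.426 CPM in transgenic vehicle and 0.173, 0.350 and 0.593 CPM in wildtype vehicle libraries. Vorinostat 6 held the highest value and vorinostat 8 the lowest, and all 3 groups overlapped. Trib3 had no value in the main fit, and at this depth a small difference could have been missed.

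Values adjusted by the authors gave more calls in the whole table. The authors' deposited table holds expression values on a log scale from a model whose terms and log base are not given in the sources used here. Tested with limma, it gave 398 of 18014 genes (2.21%) between transgenic and wildtype vehicle, 40 (0.222%) between vorinostat and transgenic vehicle and 2507 (13.9%) between vorinostat and wildtype vehicle. Of the 30 genes 0, 0 and 4 were called in these comparisons, and 4 of 30 (13.3%) is close to the share of all genes. Dnajc3, Pdia4 and Dnajb9 were higher in vorinostat than in wildtype vehicle by 0.18, 0.15 and 0.21 in the table's log units (limma adjusted p = 0.00996, 0.0180 and 0.0238). Sesn2 was lower, at -0.15 (limma adjusted p = 0.0268). These calls were not made from the counts. The limma test took the adjusted values as they stand and made no allowance for what the authors' model had already fitted. Its p-values may therefore be too small.

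Single libraries stood apart in several of these genes. The 4 libraries of high mitochondrial share lay wholly outside the range of the other 24 for 7 of the 30 genes (23.3%), against 3610 of 17009 genes tested (21.2%), so the share among these genes is near that of all genes. They lay below the 24 for 4 genes, against 1911 of all genes (11.2%), and above them for 3, against 1699 (9.99%). Syvn1 was at 32.5 to 37.2 CPM in the 4 and at 52.6 to 65.8 CPM in the 24. Hyou1 was at 78.9 to 104 CPM in the 4 and at 125 to 143 CPM in the 24. Ern1, the IRE1 gene, was at 12.9 to 14.6 CPM in the 4 and at 17.6 to 22.4 CPM in the 24.

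Sesn2 was the fourth gene that was lower in all 4 libraries, at 19.5 to 23.3 CPM against 24.6 to 30.5 CPM. The 3 genes higher in all 4 were Asns, Manf and Dnajb9. Asns was at 95.6 to 104 CPM in the 4 and at 74.8 to 91.4 CPM in the 24, Manf at 37.6 to 39.8 CPM against 26.3 to 36.8 CPM, and Dnajb9 at 34.7 to 38.6 CPM against 19.6 to 31.3 CPM. Both arms thus held genes on either side, with Ern1, Hyou1 and Syvn1 low beside Sesn2, and Dnajb9 and Manf high beside Asns. The 4 libraries were set apart by their mitochondrial share, not by these genes, and no test was made between them and the rest.

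**Figure D4:**
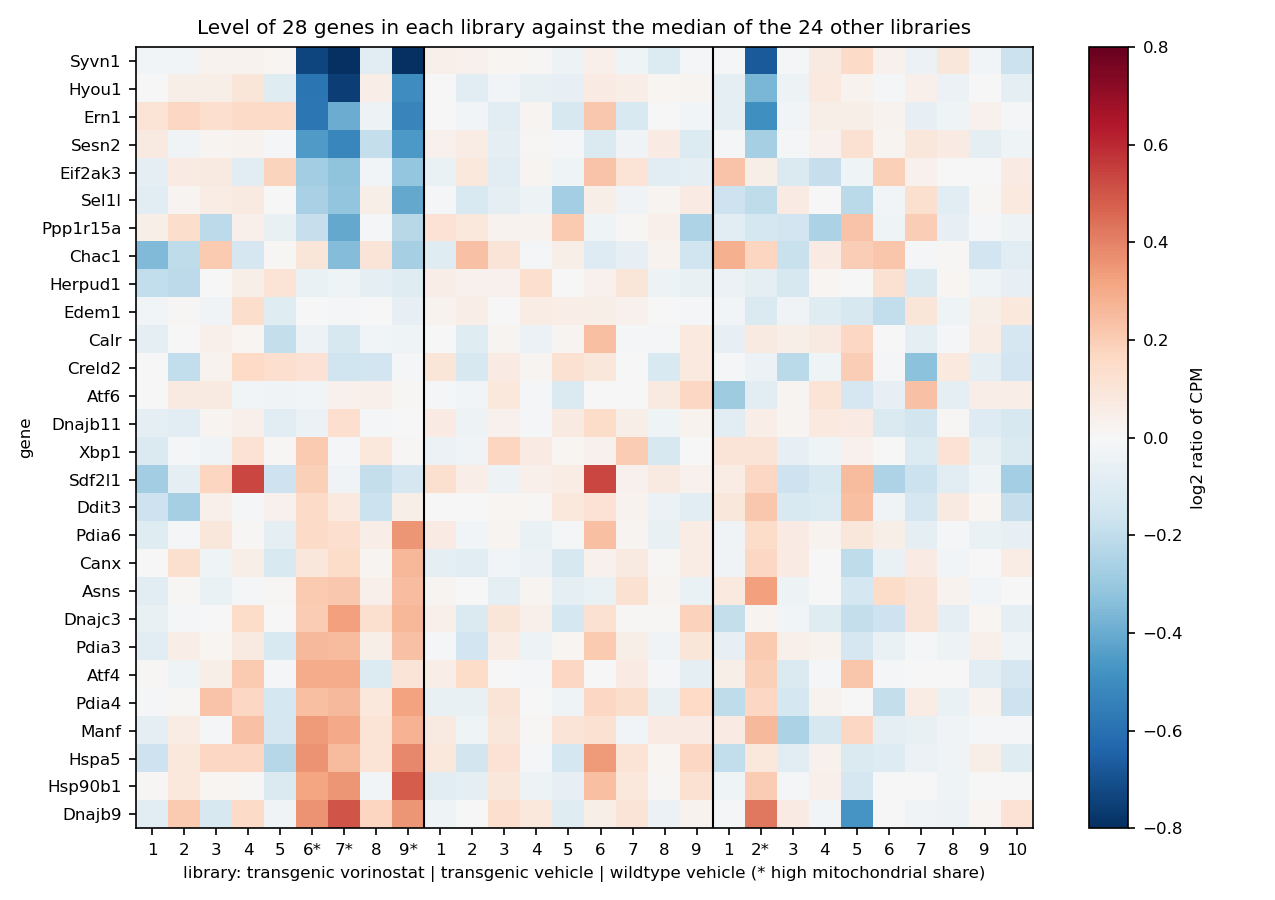
Log2 ratio of CPM in each library to the median of the 24 libraries without a high mitochondrial share, for 28 of the 30 genes (Atf3 and Trib3, under 1 CPM, are left out), ordered by the 4 libraries marked with an asterisk; libraries run from vorinostat through transgenic vehicle to wildtype vehicle. The columns of vorinostat 6, 7 and 9 and wildtype vehicle 2 go from blue at Syvn1, Hyou1, Ern1 and Sesn2 to red at Dnajb9 and Hsp90b1.

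Within groups, Hspa5 varied together with Pdia4 and Hsp90b1 from library to library. Each library's log2 CPM was taken relative to its group mean, and 10 pairs of genes were computed over the 24 libraries without a high mitochondrial share, a set chosen after seeing the data, with two-sided permutation tests adjusted over the 10. Hspa5 followed Pdia4 with a Pearson r of 0.78 and a Spearman rho of 0.77 (permutation p = 3e-05 each, adjusted p = 0.0002 and 0.0003). It followed Hsp90b1 with an r of 0.73 and a rho of 0.70 (permutation p = 4e-05 and 0.00026, adjusted p = 0.0002 and 0.0013). Without the 2 libraries farthest in Hspa5 the r was 0.73 with Pdia4 and 0.58 with Hsp90b1. All 3 of these genes are chaperones or folding enzymes of the ER.

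Among the other members of the same arms only Sdf2l1, Dnajb9 and Herpud1 were paired with Hspa5, and each had a lower r in these 24 libraries. Sdf2l1 had an r of 0.47 with Hspa5 (permutation p = 0.0197, adjusted p = 0.0492) and a rho of 0.34 (permutation adjusted p = 0.172). Its r was 0.28 without the 2 farthest libraries, a step that also lowered the r of Hsp90b1. How far the relation rests on those libraries was not tested. Dnajb9 had an r of 0.31 and a rho of 0.37 (permutation adjusted p = 0.200 and 0.155), and over all 28 libraries an r of 0.55 and a rho of 0.59 (permutation adjusted p = 0.00747 and 0.00298). Its relation with Hspa5 thus passed adjustment only with the 4 libraries included, and the difference between the r values was not tested. Herpud1, whose promoter holds the shorter element and an ATF4 element, had an r of -0.01 and a rho of 0.06 (permutation adjusted p = 0.954 and 0.870).

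In the PERK arm Atf4 and Ddit3 varied together, with an r of 0.66 and a rho of 0.59 (permutation p = 0.00049 and 0.00271, adjusted p = 0.00163 and 0.00903) and an r of 0.50 without the 2 libraries farthest in Atf4. Atf4 with Chac1 gave an r of 0.38 and a rho of 0.44 (permutation adjusted p = 0.128 and 0.0822), and with Trib3 an r of 0.35 and a rho of 0.32 (adjusted p = 0.153 and 0.183). Over all 28 libraries Atf4 with Trib3 gave an r of 0.43 and a rho of 0.29 (permutation adjusted p = 0.041 and 0.169). Atf4 with Asns gave an r of -0.19 and a rho of 0.03 (permutation adjusted p = 0.429 and 0.907), and over all 28 libraries an r of 0.39 and a rho of 0.38 (permutation adjusted p = 0.0537 and 0.0913), with an r of 0.55 without the 2 libraries farthest in Atf4. Hspa5 with Atf4, across the arms, gave an r of -0.21 and a rho of -0.23 (permutation adjusted p = 0.409 and 0.356).

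As a description over all pairs in these 24 libraries, the median Pearson r was 0.44 among chaperones and isomerases (91 pairs), 0.25 within the ATF6 and IRE1 arms (210 pairs), 0.23 within the PERK arm (36 pairs) and -0.08 between the arms (189 pairs). Pairs share their libraries, so these medians carry no test. No median over pairs of other genes was computed, so nothing particular to these genes is read from them.

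**Figure D5:**
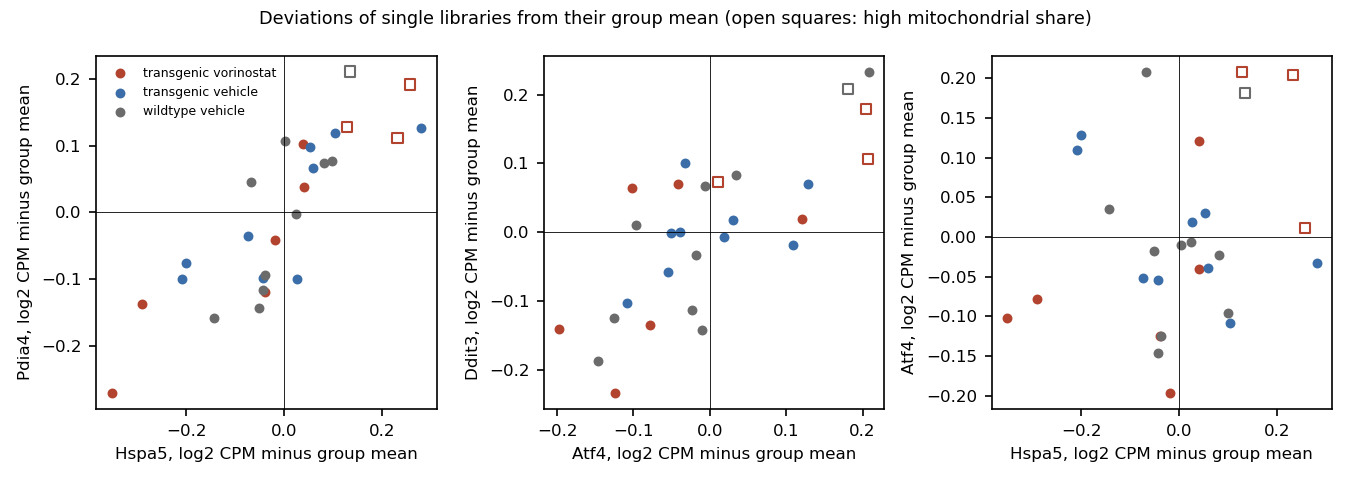
Deviation of each library from its group mean in log2 CPM for Pdia4 against Hspa5, Ddit3 against Atf4 and Atf4 against Hspa5; colours are the 3 groups and open squares the 4 libraries of high mitochondrial share. Over the 24 filled points r is 0.78 for Hspa5 and Pdia4, 0.66 for Atf4 and Ddit3 and -0.21 for Hspa5 and Atf4.

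The coexpression modules in the authors' deposited table placed the 30 genes in 11 of 14 modules of 18014 genes. The module named darkred, with 869 genes (4.82% of all), held 6 of the 30: 4 of 9 PERK arm genes (Atf4, Ddit3, Trib3 and Chac1) and 2 of 21 of the other arms (Calr and Sdf2l1). The authors' membership scores there were 0.74 for Atf4 and 0.82 for Ddit3. The black module (10.7% of all genes) held 4 of the 30 (13.3%), namely Hsp90b1, Pdia3, Pdia6 and Asns, and the purple module (14.8%) held Hspa5, Canx and Dnajc3. The green module (16.5%) held Hyou1, Syvn1, Ern1 and Sesn2, the 4 genes that were low in the libraries of high mitochondrial share, and lightcyan (8.5%) held Dnajb9 and Manf, high in those libraries, with Pdia4 and Edem1. The counts in these 4 modules are of 3 or 4 genes each, and nothing particular to the 30 is read from them. Modules and correlations both rest on libraries of this study, so one is no independent evidence for the other.

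Of 73 further genes of the pathway in 4 lists (ER folding, ERAD and translocation, sensors and proteases, and the ATF4 response), 71 were tested and edgeR called 0 in each comparison. Between transgenic and wildtype vehicle 34 of 71 were positive, between vorinostat and transgenic vehicle 36, and between vorinostat and wildtype vehicle 34. An unadjusted p under 0.05 was found for 0, 14 and 14 of them (0.0%, 19.7% and 19.7%), against 1.33%, 14.4% and 12.6% of all genes. The most positive was Stc2, a secreted glycoprotein, in the first comparison (0.21, SE 0.126). In the vorinostat and transgenic vehicle comparison it was Eif2ak2, the kinase PKR (0.22, SE 0.0866). Against wildtype vehicle it was Cth, which makes cysteine (0.26, SE 0.107).

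At the negative end were Pdia5, an isomerase, at -0.09 (SE 0.111) between transgenic and wildtype vehicle, and Stc2 at -0.23 (SE 0.129) between vorinostat and transgenic vehicle. These 2 comparisons share the transgenic vehicle libraries, in which Stc2 averaged 2.61 CPM, against 2.21 CPM in vorinostat and 2.24 CPM in wildtype vehicle libraries. Slc7a5, a transporter of large neutral amino acids, was at -0.22 (SE 0.118) between vorinostat and wildtype vehicle. Adjusted p by edgeR was 0.363 or more for Stc2, Pdia5 and Slc7a5 and 0.3445 or more for Eif2ak2 and Cth.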

How the data were processed

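Polyadenylated RNA of the dissected CA1 field was made into libraries with TruSeq RNA Library Prep v2 chemistry, in which strand is not kept, and read as 50 bp single ends. The authors deposited raw counts by gene, 1 file to a library. The submitters' processing notes name the mm10 genome, STAR 2.5.2b, Subread 1.5.1 with featureCounts, and FastQC 0.11.5. Their annotation release, strand setting and handling of multi-mapping reads are not given in the sources used here. Counts of genes that share exon bases with others are therefore uncertain: Hsp90b1 shares 10.3% of its exon length with 1810014B01Rik, Eif2ak3 8.05% with Gm43292, Manf 4.71% with 4930524O07Rik and 4.14% with Dcaf1, and Ddit3 3.97% with Mars. Reads of Calr may also be split with its pseudogene Calr-ps.

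The authors also deposited adjusted expression values on a log scale, recorded here as log2 although the base is not stated, so differences are in the table's own log units and are not set against log2 fold changes, and module membership as a score, a correlation, with a deposited p-value for each score.

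The groups are those of the sample titles. All 48709 genes entered library totals, and 48349 (99.3%) matched a GENCODE M21 symbol. Within groups, 117 pairs of libraries had a chi-square per degree of freedom of 3.18 to 79.4, and since 0 files were identical all libraries were kept apart. The main test was edgeR's quasi-likelihood test (version 4.0.16, R 4.3.3) with TMM scaling, a minimum count of 10 and total of 15, 1 fit over 28 libraries, and Benjamini-Hochberg adjustment over the 17009 genes within a comparison (threshold 0.05). The fitting script was tested on simulated data. CPM are counts per 1000000 of the TMM-scaled total, and RPKM are CPM per kilobase of summed exons. Log2 fold changes had a median standard error of 0.0862 between transgenic and wildtype vehicle, 0.0885 between vorinostat and transgenic vehicle and 0.0864 between vorinostat and wildtype vehicle. Correlations used log2(CPM + 0.1) and 100000 permutations, for which 1e-05 is the smallest p they can give.

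Alternatives were DESeq2 1.42.0, RLE scaling, no low-count filter, fits on the groups compared, replicate blocks, Xist as a covariate and each library left out. After seeing the data, fits without the 4 libraries of high mitochondrial share and limma 3.58.1 on the adjusted values were added. All 30 genes are reported by rule, and of the further pathway genes the 3 most positive and 3 most negative of each comparison were eligible to be named. The genes, lists and motifs were chosen with earlier results of these data known. Sequences are from RefSeq.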

Additional observations from a re-analysis of the deposited data

Results flagged for a closer look

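Each of the 30 genes was examined in each of the 3 groups for a library far from the rest of its group, and 14 of 90 combinations had one. Chance flags about 1 in 20 groups, and libraries that stand apart in many genes are counted once per gene. Libraries are named with their CPM.

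Wildtype vehicle 2, of high mitochondrial share (6.41%), accounted for 6. It was the highest of its group for Hsp90b1 (288.9 CPM, against 229 to 257 in the other wildtype libraries) and Pdia3 (219.4 CPM, against 173 to 195). It was the lowest for Hyou1 (103.6 CPM, against 126 to 141), Syvn1 (37.15 CPM, against 52.6 to 65.8), Ern1 (13.75 CPM, against 18.3 to 19.98) and Sesn2 (23.27 CPM, against 26.7 to 30.5).

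Transgenic vehicle 6, with the highest summed oligodendrocyte markers of all libraries (6739 CPM) and a mitochondrial share of 3.53%, accounted for 4. It was the highest of its group for Pdia6 (103.9 CPM, against 84.3 to 91.9), Calr (434.0 CPM, against 344 to 389), Sdf2l1 (10.13 CPM, against 6.80 to 7.66) and Ern1 (22.4 CPM, against 17.6 to 19.6).

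Vorinostat 4 was the highest of its group for Sdf2l1 (10.16 CPM, against 5.77 to 7.99) and Edem1 (30.03 CPM, against 25.4 to 27.4). Vorinostat 6, of high mitochondrial share, was the highest for Trib3 (0.8935 CPM, against 0.0461 to 0.416), a gene with few reads. Transgenic vehicle 7 was the highest for Asns (89.7 CPM, against 78.1 to 83.8).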

How the results depend on the processing

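No gene of the 29 was called from the counts under any alternative run. Over the whole table edgeR's 0 calls became 1 with DESeq2 (vorinostat against transgenic vehicle; Igfbp4), and 3 in that comparison with Xist as a covariate (Kdm5d, Uty and Ddx3y). With the title number as a replicate block 1 gene was called in vorinostat against wildtype vehicle (Zfp26). The block gave 0 calls in the other comparisons and moved no call of the 29 genes. Leaving out 1 library gave 0 to 1 calls in vorinostat against transgenic vehicle (Igfbp4, without vorinostat 3). It gave 0 to 3 in vorinostat against wildtype vehicle, with 3 (Alas2, Hbb-bt and Hbb-bs) without wildtype vehicle 2 and 1 (Adm) without wildtype vehicle 5. These genes were named after their values were seen, and the cause was not tested. Limma on the authors' adjusted values called 398, 40 and 2507 genes in the 3 comparisons and 4 of the 30 in vorinostat against wildtype vehicle. Samples with the same title number had a median correlation of 0.0598 (from -0.339 to 0.408, over 27 pairs), against -0.0137 for other pairs. Those with the same description number had a median of 0.0459. No test was made, so whether samples with the same number share more than the number is not settled.

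A change of sign was counted only for genes more than 1 SE from 0 over all 28 libraries. Without the 4 libraries of high mitochondrial share, values for vorinostat against transgenic vehicle turned to -0.0375 for Hspa5, -0.0402 for Hsp90b1, -0.0296 for Pdia3, -0.0228 for Manf, 0.0315 for Hyou1, 0.0070 for Eif2ak3, -0.0106 for Asns and 0.0001 for Sesn2. For vorinostat against wildtype vehicle Pdia6 turned to -0.0078 and Hyou1 to 0.0342. Except for that value of Hyou1, these are themselves within 1 SE of 0 and carry no direction. Ern1, within 1 SE of 0 over all libraries, was then at 0.126 (SE 0.0469) against transgenic vehicle and 0.119 (SE 0.0470) against wildtype vehicle, and Sel1l at 0.0599 against transgenic vehicle. The arms' medians for vorinostat against transgenic vehicle were then -0.028 and -0.029 over the same 21 and 8 genes, in place of -0.0046 and -0.089. Trib3 passed the low-count filter there, and with it the PERK arm median was -0.038. For transgenic against wildtype vehicle that median was -0.0092 with Trib3 and 0.0077 over the 8 genes. For vorinostat against wildtype vehicle it was -0.036 with Trib3 and -0.019 over the 8 genes. On the adjusted values Asns turned to 0.0186 for transgenic against wildtype vehicle. None of the other alternatives turned the sign of a gene beyond 1 SE, and fits on the groups compared gave no value for Atf3, which their filter removed. Depth limits Atf3 and Trib3, both under 1 CPM in every library.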
